A study of Mus musculus with 9 samples.

Results

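The subject here is how far the response to tunicamycin differed between GM-BMDM and M-BMDM, the labels' names for a pair of kinds of mouse bone-marrow-derived macrophage, and which genes responded alike in both. For each gene the response of a kind is the log2(CPM + 1) of its library after 4 h of tunicamycin minus that of its untreated library, where CPM values are read counts scaled to a common library size by TMM. The difference of responses is the GM-BMDM response minus the M-BMDM response, so a negative value means that the treated level stood further above the untreated level, or less far below it, in M-BMDM. Of 22060 genes listed, 11049 averaged 1 CPM or more across the 4 libraries and were compared. The difference was -1 or lower for 152 genes (1.38% of those compared) and 1 or higher for 23 genes (0.208%). A further 17 genes (0.154%) were higher after tunicamycin in both kinds and 36 (0.326%) were lower in both, each by at least 0.5 with responses less than 0.5 apart, and these are called alike. The description therefore covers 228 genes. All 228 passed the CPM minimum, because the rule contains it. The thresholds use the same 4 libraries as the values given below, so the sizes of these differences are a description and carry no test.

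The 4 libraries were made from macrophages of C57BL mouse bone marrow, and the labels name no engineered allele. They were untreated GM-BMDM, GM-BMDM given tunicamycin for 4 h, untreated M-BMDM and M-BMDM given tunicamycin for 4 h. Each group was 1 library, so the model that holds the difference of responses has 0 residual degrees of freedom and no p-value can be given. The labels spell out neither kind's name, the growth factor used, the tunicamycin dose, nor the number of animals. The series also holds 5 libraries of LLC, a mouse line of Lewis lung carcinoma, and 4 of those, cultured for 24 h in medium conditioned by such macrophages, are used near the end as a readout that the rule did not touch.

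Tunicamycin stops the first step of N-linked sugar attachment, and unmodified proteins then fold poorly in the endoplasmic reticulum (ER). The kinase PERK answers by phosphorylating eIF2alpha, which slows translation of most messages but favours that of the transcription factor ATF4. ATF4 and its partners switch on genes of amino acid synthesis, uptake and tRNA charging, the factor CHOP (gene Ddit3) and feedback genes that restart translation, a programme named the integrated stress response (ISR). The other ER sensors, IRE1 with XBP1 and ATF6, act mostly on chaperones and on the degradation of misfolded proteins. In macrophages, ER stress is also known to raise inflammatory genes.

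Assigned reads ranged from 37695079 to 42751176 per macrophage library. Genes known as marks of macrophages grown with M-CSF (22 listed) summed to 6161 and 5767 CPM in untreated and treated GM-BMDM and to 36442 and 27328 CPM in M-BMDM. The 20 marks of macrophages grown with GM-CSF summed to 21850 and 20704 CPM in GM-BMDM against 1054 and 880 CPM in M-BMDM. Macrophage markers were high in all 4 libraries, with a sum over 14 genes between 37376 and 57921 CPM. Mitochondrial mRNAs made up 1.86% and 1.59% of the reads in GM-BMDM and 0.899% and 0.861% in M-BMDM. Intervals given below are 95% intervals for counting error alone, exact Clopper-Pearson ones for a fold and approximate ones on the log scale for a ratio of folds. They say nothing of how another culture would vary.

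The larger responses were found in M-BMDM. There 130 genes (1.18%) were higher after tunicamycin by 1 or more and 32 (0.29%) were lower by 1 or more. In GM-BMDM the counts were 7 (0.0634%) and 49 (0.443%), so the share of higher genes was small and most of the genes that moved this far were lower. The 7 were Trib3, Chac1, Ddit3, Asns, Slc1a4, Cxcl2 and the histone gene H3c4. Of the 130 genes higher in treated M-BMDM, 23 reached a GM-BMDM response of 0.5. For 9801 genes (88.7% of those compared) the responses lay within 0.5 of each other. Only 4 of 11049 genes had responses of at least 0.5 in opposite directions.

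**Figure D1:**
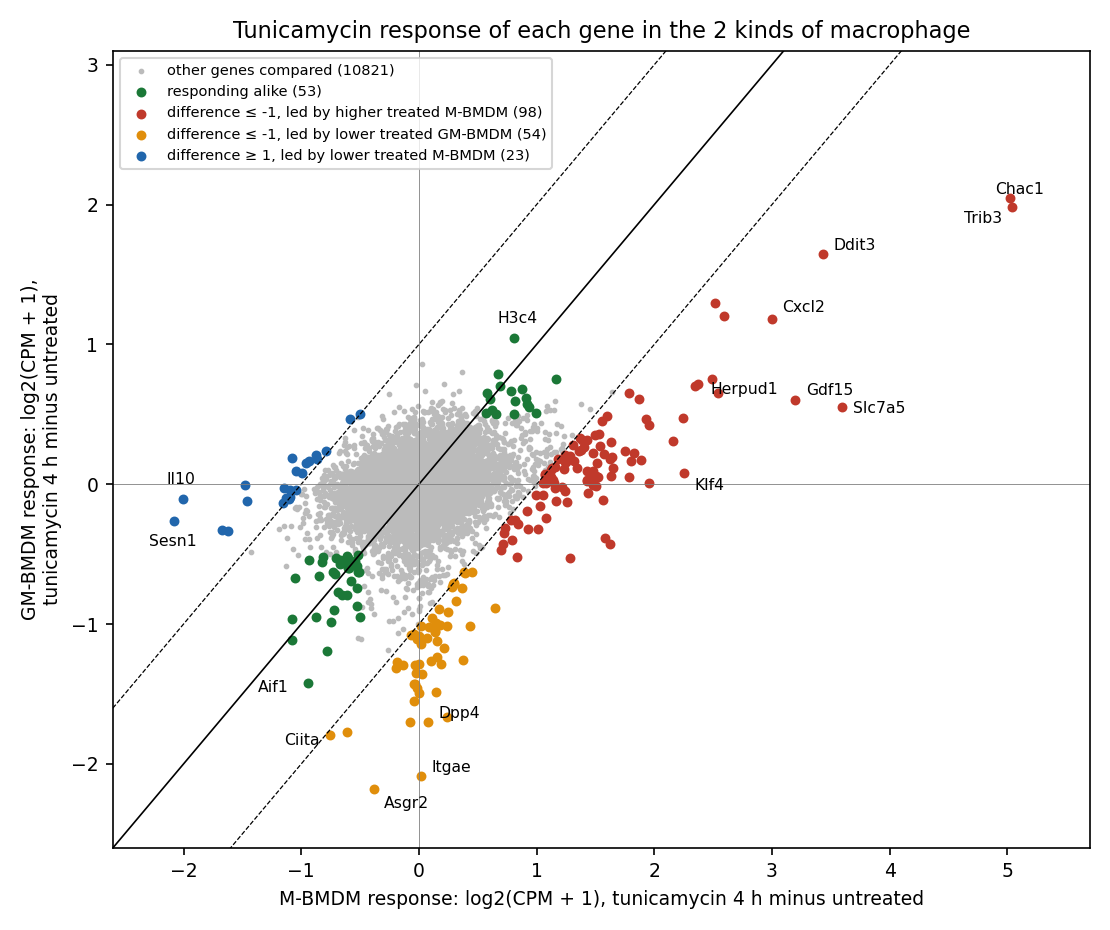
Response of each of the 11049 genes to 4 h of tunicamycin, with M-BMDM on the horizontal axis and GM-BMDM on the vertical axis, both as log2(CPM + 1) of the treated minus the untreated library; the solid line marks equal responses and the dashed lines a difference of 1. The genes in red lie to the right, near a GM-BMDM response of 0 (median 0.11) at M-BMDM responses of up to 5.04, and the genes in orange lie below the centre, near an M-BMDM response of 0 (median 0.09).

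The 152 genes with the lower response in GM-BMDM were of 2 forms. In 98 (64.5%) the M-BMDM response was the larger of the pair in size, with a median response of 1.43 in M-BMDM and 0.11 in GM-BMDM. These are called M-led genes. In the other 54 the larger part was a lower level in treated GM-BMDM, with median responses of -1.12 in GM-BMDM and 0.09 in M-BMDM, and these are called GM-led genes. Among the 98 M-led genes 82 had a GM-BMDM response within 0.5 of 0, 14 reached 0.5, and 2 (Prag1 and Srp54c) were at -0.5 or lower. For 4 of the 98 (Id3, Ciart, Egr1 and Cxcl1) GM-BMDM was below 1 CPM in both libraries, so they passed the minimum through M-BMDM.

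Untreated levels of the kinds were less often close in the M-led genes than over all genes compared. In 62 of the 98 (63.3%) they lay within 1 on the log2 scale, beside 8902 of 11049 genes compared (80.6%). GM-BMDM was higher by 1 or more before treatment in 27 of the 98 (27.6%) and M-BMDM in 9. Over all genes compared GM-BMDM was higher by that much in 1371 (12.4%). After tunicamycin M-BMDM was higher by 1 or more in 51 and GM-BMDM in 11. The order of the kinds turned over in 40 of the 98, with GM-BMDM higher before and M-BMDM higher after. The gap of GM-BMDM minus M-BMDM after treatment equals the gap before it plus the difference of responses. The rule took genes with that difference at -1 or lower, so a shift towards M-BMDM is built in. The untreated libraries enter that difference too, so the rule favours genes high in untreated GM-BMDM or low in untreated M-BMDM. The shares of untreated gaps given above are therefore in part built in as well.

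The ISR transcription factors showed the difference as a group. Of 10 such genes compared, 7 were at -1 or lower, beside 1.38% of all genes compared. All 10 lay below 0, and the median difference was -1.23, beside -0.0016 over all genes. The median response was 0.39 in GM-BMDM and 1.57 in M-BMDM, and all 10 were above 0 in both kinds. The 7 were Trib3, Ddit3, Atf4, Atf3, Jdp2, Nupr1 and Nfe2l1.

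Atf4, the central factor of the programme, stood at 216 CPM in untreated and 299.5 CPM in treated GM-BMDM, and at 160 and 614 CPM in M-BMDM. Its fold was 1.38 (1.35 to 1.42) in GM-BMDM and 3.84 (3.73 to 3.95) in M-BMDM, a ratio of 2.77 (2.67 to 2.88). The 2 untreated libraries were the lowest and the treated M-BMDM library was far above the other 3. Ddit3, which encodes CHOP, had 13.5 and 44.3 CPM in GM-BMDM and 17.0 and 194 CPM in M-BMDM. Both kinds thus had more Ddit3 after tunicamycin, 3.29 times as much (2.99 to 3.63) in GM-BMDM and 11.4 times as much (10.5 to 12.4) in M-BMDM. A second gene model of the name Ddit3 was listed with 0 reads in all 4 libraries, so no read was split to it.

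Trib3, a pseudokinase induced by ATF4 and CHOP, had 2.51 and 13.5 CPM in GM-BMDM and 1.40 and 76.6 CPM in M-BMDM. Its difference of -2.97 was the third lowest of all. Atf3, a stress-induced repressor of the same family, was at 250 CPM in untreated and 260 CPM in treated GM-BMDM, which is a response of 0.06, and at 147 and 421 CPM in M-BMDM, a response of 1.51. GM-BMDM therefore had the more Atf3 of the pair before tunicamycin and the less of it afterwards. The remaining list members, Cebpg, Cebpb and Atf5, had differences of -0.76, -0.65 and -0.56.

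**Figure D2:**
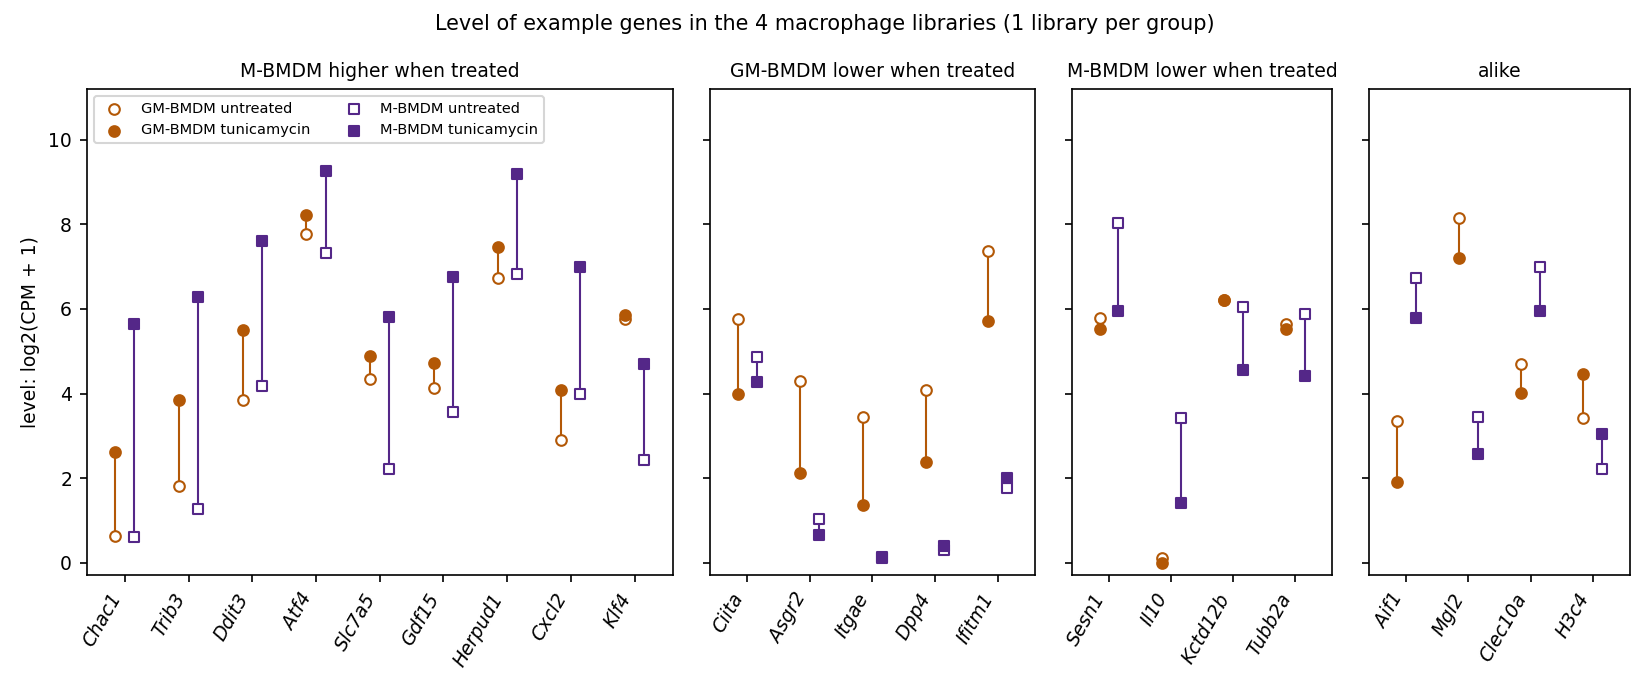
Levels of 22 example genes in the 4 macrophage libraries as log2(CPM + 1), with open symbols for untreated and filled symbols for treated libraries, circles for GM-BMDM, squares for M-BMDM, and a line joining the pair of each kind; every symbol is 1 library and there are no error bars. In the first panel the filled squares are above the open ones throughout (Trib3 from 1.40 to 76.6 CPM), and in the second the filled circles lie below the open ones (Ciita from 52.95 to 14.8 CPM).

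Genes that ATF4 is known to switch on followed. Among 18 ISR genes of metabolism and secreted hormones, 9 were at -1 or lower, beside 1.38% of all genes compared. Of the 18, 16 lay below 0, with a median difference of -0.99. The median responses were 0.36 in GM-BMDM and 1.23 in M-BMDM. Chac1, which breaks down glutathione, gave the lowest difference of all 11049 genes, -3.05. It had 0.546 and 5.11 CPM in GM-BMDM and 0.537 and 49.4 CPM in M-BMDM, from 22 and 20 reads in the untreated libraries. The untreated levels were the same within counting error, and the fold was 9.36 (6.02 to 15.2) in GM-BMDM and 92.1 (59.5 to 151) in M-BMDM.

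Gdf15, a secreted hormone of cell stress, stood at 16.4 and 25.5 CPM in GM-BMDM and at 10.8 and 107 CPM in M-BMDM, a fold of 1.55 (1.41 to 1.71) against 9.93 (8.97 to 11.03). Sesn2, an inhibitor of the growth kinase mTORC1, had 27.1 and 38.0 CPM against 19.9 and 98.0 CPM. Asns, the enzyme that makes asparagine, had 11.6 and 30.02 CPM in GM-BMDM and 28.7 and 169 CPM in M-BMDM, so it was higher after tunicamycin in both kinds, 2.58 times (2.32 to 2.87) and 5.88 times (5.51 to 6.27). Phgdh, the first enzyme of serine synthesis, had 45.3 and 51.0 CPM against 17.5 and 63.3 CPM. The other members at -1 or lower were Mthfd2 (-1.26), Aldh18a1 (-1.16), Psat1 (-1.07) and Ddit4 (-1.03), enzymes of folate, proline and serine metabolism and an mTORC1 inhibitor. Ndrg1 and Vldlr, at 0.12 and 0.13, were the 2 members above 0.

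Amino acid transporters differed in part. Of 14 compared, 4 were at -1 or lower, beside 1.38% of all genes compared, and 11 were below 0, with a median of -0.36. Slc7a5, the light chain of the LAT1 carrier of large neutral amino acids, had 19.3 and 28.8 CPM in GM-BMDM and 3.62 and 54.9 CPM in M-BMDM. The fold was 1.49 (1.36 to 1.63) and 15.2 (12.7 to 18.2), a ratio of 10.2 (8.37 to 12.4). Untreated M-BMDM was the lowest of the 4 libraries and treated M-BMDM the highest. Its partner chain Slc3a2 had 122 and 171 CPM against 162 and 493 CPM, a difference of -1.11. The cationic carrier Slc7a1 (24.0 and 30.04 against 18.9 and 87.9 CPM) and the neutral carrier Slc1a4 (1.39 and 4.50 against 1.66 and 15.05 CPM) were the others. The glycine carrier Slc6a9 was among the genes called alike, at 0.695 and 1.86 against 2.90 and 7.73 CPM.

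Aminoacyl-tRNA synthetases, which charge tRNAs, had a median difference of -0.52 over 19 genes, with 15 below 0 and 2 at -1 or lower. Those were Cars (46.5 and 58.2 CPM in GM-BMDM, 54.2 and 143 CPM in M-BMDM) and Sars (170 and 185 against 123.5 and 272 CPM). Aars and Yars, at -0.96 and -0.92, came next. Dars, Farsa, Hars, Kars and Qars lay between -0.01 and 0.11. Among 10 ISR feedback and translation genes 2 were at -1 or lower. Ppp1r15a, the phosphatase subunit GADD34 that restarts translation, had 32.2 and 43.6 CPM in GM-BMDM and 34.6 and 137 CPM in M-BMDM, with a ratio of folds of 2.92 (2.66 to 3.21). The initiation factor Eif5 was just inside the threshold at -1.01. Over the ISR, amino acid and tRNA lists together 24 of 71 genes (33.8%) were at -1 or lower, against 1.38% of all genes, and all 24 were M-led. They made up 24.5% of the 98 M-led genes.

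Promoters of the M-led genes were searched because members of the ATF4 programme moved together. The window ran from 250 bases before to 50 bases after the start of each RefSeq gene on GRCm38.p6. Genes were matched to the table by Ensembl ID, or by symbol where the ID gave no match. In this way 79 of the 98 genes and 8923 of the 11049 genes matched. The core letters TGATGNAA of the amino acid response element, to which ATF4 binds with a C/EBP partner, were searched on both strands. They stood in 15 of the 79 genes (19.0%), in 255 of the 8923 genes compared (2.86%) and in 1304 of 32851 promoters in the whole table (3.97%). Among genes called alike the core stood in 2 of 17 higher ones (11.8%) and 3 of 32 lower ones (9.38%). It stood in 1 of the 43 GM-led genes that matched, of 54 (2.33%), and in 1 of the 16 that matched of the 23 genes with the higher response in GM-BMDM (6.25%). In these sets fewer than 80% of the genes had a promoter, just under in the first and well under in the second, so the check counts as void there, while the M-led genes were just over. The UPR element letters TGACGTGG stood in 1 of the 79 (1.27%, beside 0.941% of the genes compared), the cyclic AMP response element TGACGTCA in 2 (2.53%, beside 3.72%) and the AP-1 letters TGANTCA in 7 (8.86%, beside 6.16%). Among the lower genes called alike the AP-1 letters stood in 7 of 32 (21.9%). These words cannot match the same position on a strand together, and partial overlaps of neighbouring matches were counted under each.

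To show what these matches look like, 28 bases are printed for 10 of the 15 genes, 5′ to 3′ on the strand on which the core reads TGATGNAA, with the core in capitals. The matches in Aqp9, Bcl2a1d, Bcl2a1a, Samd8 and Spata13, with differences from -1.38 to -1.08, are not printed. The printed genes were therefore not taken by difference alone and do not stand for all 15. The positions on GRCm38.p6 are chr2:119351039-119351066 for Chac1 (minus strand), chr2:152344029-152344056 for Trib3 (plus), chr3:89245354-89245381 for Trim46 (minus), chr8:94386307-94386334 for Herpud1 (minus), chr1:191183426-191183453 for Atf3 (plus), chr11:20332700-20332727 for Slc1a4 (plus), chr12:85599373-85599400 for Jdp2 (plus), chr6:7693215-7693242 for Asns (minus), chr7:126625563-126625590 for Nupr1 (plus) and chr13:51846564-51846591 for Gadd45g (minus). The core lay 193 bases before the start in Chac1, 172 in Trim46, 112 in Herpud1, 110 in Atf3 and Nupr1, 101 in Gadd45g, 33 in Jdp2, 23 in Asns and 4 in Slc1a4, and 14 bases past it in Trib3.
Chac1: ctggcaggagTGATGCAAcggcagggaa
Trib3: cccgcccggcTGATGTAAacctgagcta
Trim46: tggggtggggTGATGAAAaaaccgctcc
Herpud1: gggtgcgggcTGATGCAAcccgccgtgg
Atf3: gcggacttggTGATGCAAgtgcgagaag
Slc1a4: aggctggagaTGATGCAAcgcaggaggc
Jdp2: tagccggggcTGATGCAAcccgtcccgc
Asns: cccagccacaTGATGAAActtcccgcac
Nupr1: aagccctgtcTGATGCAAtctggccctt
Gadd45g: gcccgctttcTGATGCAAatgaggcggc

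For Chac1, Herpud1 and Atf3, which have the core upstream of the start, the 250 bases before the start are printed on the strand of the gene. These too were not taken by difference alone. Trim46, with a difference of -1.72 and the core upstream, is left out here. The windows are chr2:119350992-119351241 (plus strand), chr8:94386179-94386428 (plus strand) and chr1:191183334-191183583 (minus strand) of GRCm38.p6, from RefSeq. In all 3 the core is on the opposite strand and reads TTGCATCA, in capitals.
Chac1: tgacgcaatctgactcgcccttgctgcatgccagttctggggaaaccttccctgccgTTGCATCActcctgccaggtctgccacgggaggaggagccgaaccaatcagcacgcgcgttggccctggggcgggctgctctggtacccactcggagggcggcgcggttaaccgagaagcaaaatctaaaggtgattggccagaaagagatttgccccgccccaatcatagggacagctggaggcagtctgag
Herpud1: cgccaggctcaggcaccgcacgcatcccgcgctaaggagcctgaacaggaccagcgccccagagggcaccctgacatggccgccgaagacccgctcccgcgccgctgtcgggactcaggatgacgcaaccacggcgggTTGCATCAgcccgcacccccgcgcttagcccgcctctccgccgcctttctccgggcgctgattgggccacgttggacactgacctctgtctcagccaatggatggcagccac
Atf3: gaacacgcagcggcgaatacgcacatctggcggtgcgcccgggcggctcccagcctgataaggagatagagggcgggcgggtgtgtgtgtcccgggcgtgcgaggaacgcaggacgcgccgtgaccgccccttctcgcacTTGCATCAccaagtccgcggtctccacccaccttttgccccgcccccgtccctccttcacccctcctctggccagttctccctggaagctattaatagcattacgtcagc

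ER folding and degradation genes, which the IRE1 and ATF6 arms are known to drive, mostly responded within 1 of each other. Of 58 genes in the chaperone, degradation and sensor lists 2 (3.45%) were at -1 or lower, and the median difference was -0.09. One was Herpud1, a membrane protein of ER-associated degradation whose promoter is printed above, with 106 and 175 CPM in GM-BMDM and 112 and 585 CPM in M-BMDM. Its untreated libraries were close, and its fold was 1.65 (1.59 to 1.71) against 5.22 (5.05 to 5.39). The other was the disulfide oxidase Ero1l, at 151 and 157 against 60.1 and 132 CPM. The 3 lists were unlike, with medians of -0.23 for chaperones, -0.07 for degradation and -0.03 for sensors. Of the 22 chaperone genes 15 lay below 0, and 4 had an M-BMDM response of 1 or more. None of the 22 reached 1 in GM-BMDM. Hspa5, the chaperone BiP and a standard marker of ER stress, had 1048 and 1542 CPM in GM-BMDM and 1080 and 2301 CPM in M-BMDM. Both treated libraries were above both untreated ones, the folds were 1.47 (1.45 to 1.49) and 2.13 (2.11 to 2.16), and the difference was -0.53. The cochaperone Dnajb9 had 61.4 and 77.2 against 58.3 and 123 CPM (-0.75), and the sensor Ern1, which encodes IRE1alpha, 48.2 and 56.7 against 74.1 and 167 CPM (-0.93). Xbp1 was nearly level, at 381 and 378 against 270 and 280 CPM. Total Xbp1 reads do not show its splicing. None of the 34 N-glycosylation genes, whose pathway tunicamycin blocks, reached 1 in either direction, and their median difference was 0.08. Over all genes 1.38% reached -1 and 0.208% reached 1.

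**Figure D3:**
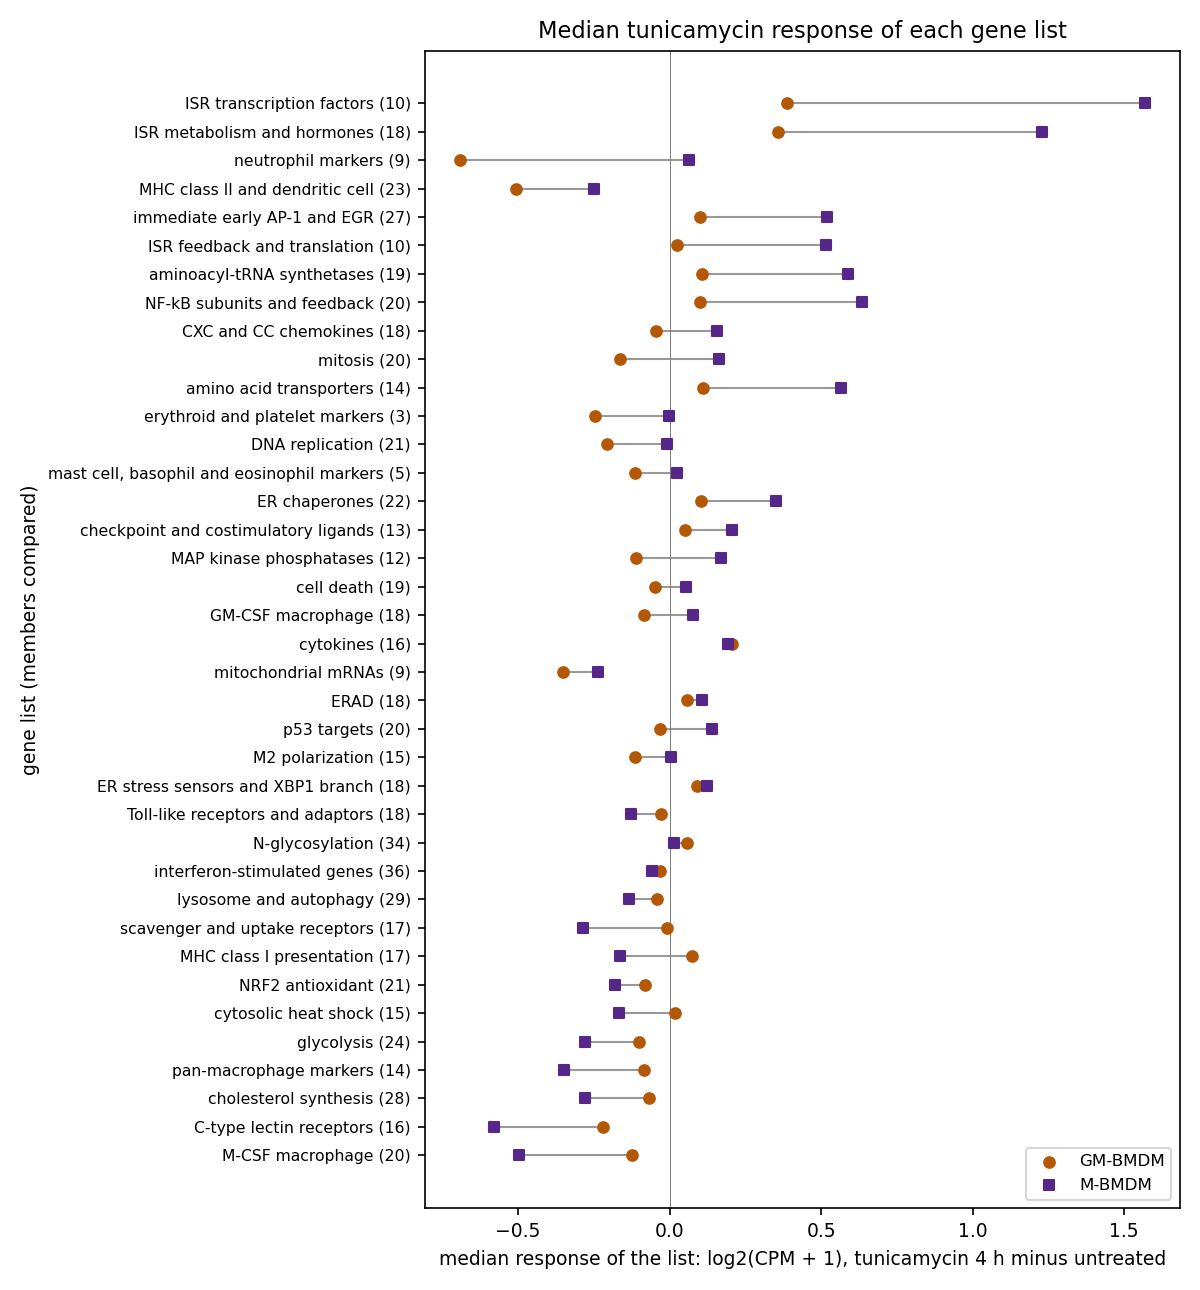
Median response to tunicamycin of the members of 38 gene lists with at least 3 genes compared, as log2(CPM + 1) of treated minus untreated, with circles for GM-BMDM and squares for M-BMDM; the number of genes compared is in brackets and lists are ordered by their median difference. The squares are farthest to the right of the circles in the lists of ISR transcription factors (1.57 against 0.39) and ISR metabolism (1.23 against 0.36), and to the left of them in the M-CSF macrophage list (-0.50 against -0.12).

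Inflammatory and immediate early genes were the second large group among the M-led genes. The group held the lists of chemokines, cytokines, NF-kB genes, immediate early genes, MAP kinase phosphatases and checkpoint ligands. Of its 105 genes 21 (20.0%) were at -1 or lower, 19 of them M-led and 2 GM-led, beside 1.38% of all genes compared. In the group 79 lay below 0, beside 5552 of the 11049 genes compared. Its median responses were 0.08 in GM-BMDM and 0.39 in M-BMDM. The groups overlap, since Atf3 is also on the list of ISR transcription factors and was counted in both. Cxcl2, a neutrophil-attracting chemokine, had 6.48 and 16 CPM in GM-BMDM and 14.9 and 126 CPM in M-BMDM, a fold of 2.47 (2.14 to 2.86) against 8.45 (7.74 to 9.24). Tnf had 20.6 and 23.2 CPM against 40.5 and 97.9 CPM, with a ratio of folds of 2.15 (1.93 to 2.40). The chemokine Ccl3 had 193 and 183 against 48.2 and 101 CPM. Il1b went the other way, at 7.23 and 10.5 CPM in GM-BMDM and 10.2 and 9.91 CPM in M-BMDM, with a difference of 0.52. The cytokine list as a whole had no clear direction, with 8 of 16 genes below 0 and a median of -0.13 that became 0.03 with a pseudocount of 5.

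Among 20 NF-kB subunits and feedback genes 19 lay below 0 and the median was -0.44, but 1 was at -1 or lower, the adhesion molecule Icam1 (128 and 134 CPM in GM-BMDM, 164 and 346 CPM in M-BMDM). Differences in this list were thus alike in direction and mostly under 1. For this list and the next 2, the share at -1 or lower over all genes compared was 1.38%. Of 27 immediate early genes 9 were at -1 or lower. Klf4, a transcription factor of monocytes, had 53.7 and 56.7 CPM in GM-BMDM and 4.43 and 24.8 CPM in M-BMDM. Its level in GM-BMDM was above both M-BMDM libraries with and without tunicamycin, and its fold was 1.06 (0.997 to 1.12) against 5.60 (4.75 to 6.64). The growth arrest gene Gadd45a had 13.3 and 23.2 CPM against 12.9 and 76.9 CPM. The nuclear receptor Nr4a3 was the exception in this list, since it was GM-led, at 8.94 and 2.62 CPM in GM-BMDM and 0.349 and 0.332 CPM in M-BMDM. Among MAP kinase phosphatases, feedback enzymes of that signal, 2 of 12 were at -1 or lower, Dusp4 (7.45 and 6.74 against 21.9 and 53.6 CPM) and Dusp16 (17.6 and 12.8 against 11.8 and 19.9 CPM).

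Ligands by which macrophages address T cells were split. Of 13 checkpoint and costimulatory ligands 3 were at -1 or lower, beside 1.38% of all genes compared, and 9 were below 0. Cd274, which encodes PD-L1, had 338 and 425 CPM in GM-BMDM and 49.5 and 129 CPM in M-BMDM, so GM-BMDM stayed above M-BMDM after treatment although its fold was smaller, 1.26 (1.23 to 1.29) against 2.61 (2.48 to 2.76). Icosl, the ligand of ICOS, had 25.8 and 28.0 against 45.1 and 143 CPM, and Tnfsf9, the ligand of 4-1BB, 3.60 and 3.77 against 3.65 and 12.0 CPM. Cd83, a marker of activated dendritic cells, had 12.0 and 12.0 CPM in GM-BMDM and 62.1 and 174.5 CPM in M-BMDM. It was the only M-led gene among the class II and dendritic cell genes compared.

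Other M-led genes among the 30 lowest differences were of several kinds. Id2 and Id3, inhibitors of basic helix-loop-helix factors, had differences of -1.97 and -1.73. Id2 stood at 179 and 137 CPM in GM-BMDM and 47.8 and 145 CPM in M-BMDM, and Id3 at 0.099 and 0.141 against 1.99 and 9.29 CPM. Id3 had 4 and 6 reads in GM-BMDM, so its response there could not be read. Cd69, an early activation receptor, had 6.43 and 4.52 against 3.62 and 13.3 CPM, and the chemerin-binding receptor Ccrl2 25.5 and 25.6 against 19.0 and 76.3 CPM. Id2 and Cd69 were lower in treated than in untreated GM-BMDM and Ccrl2 was level there (fold 1.005, 0.922 to 1.10), while all 3 were higher in treated M-BMDM, Id2 by a fold of 3.04 (2.88 to 3.21). Soat2, which esterifies cholesterol, had 0.323 and 1.08 CPM against 0.698 and 8.89 CPM. Further genes in this range were Ifrd1, Gpr157, Trim46, Prag1 and the clock gene Ciart, with differences from -1.81 to -1.61.

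Cell death genes contained members of both directions of action, and 3 of 19 were at -1 or lower, beside 1.38% of all genes compared. The 3 were Bbc3, which encodes the killer protein PUMA (7.38 and 7.97 against 9.47 and 27.2 CPM), and the survival genes Bcl2a1d and Bcl2a1a. Bcl2a1d had 115 and 92.0 CPM in GM-BMDM and 2.50 and 6.04 CPM in M-BMDM, and Bcl2a1a 113 and 95.7 against 0.295 and 1.73 CPM. These copies are nearly identical, so reads may have been split between them and their values are uncertain. Chil3, a chitinase-like mark of GM-CSF macrophages, had 2822 and 2930 CPM in GM-BMDM against 1.91 and 7.35 CPM in M-BMDM, and its difference of -1.47 came from a small amount of RNA in M-BMDM.

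**Figure D4:**
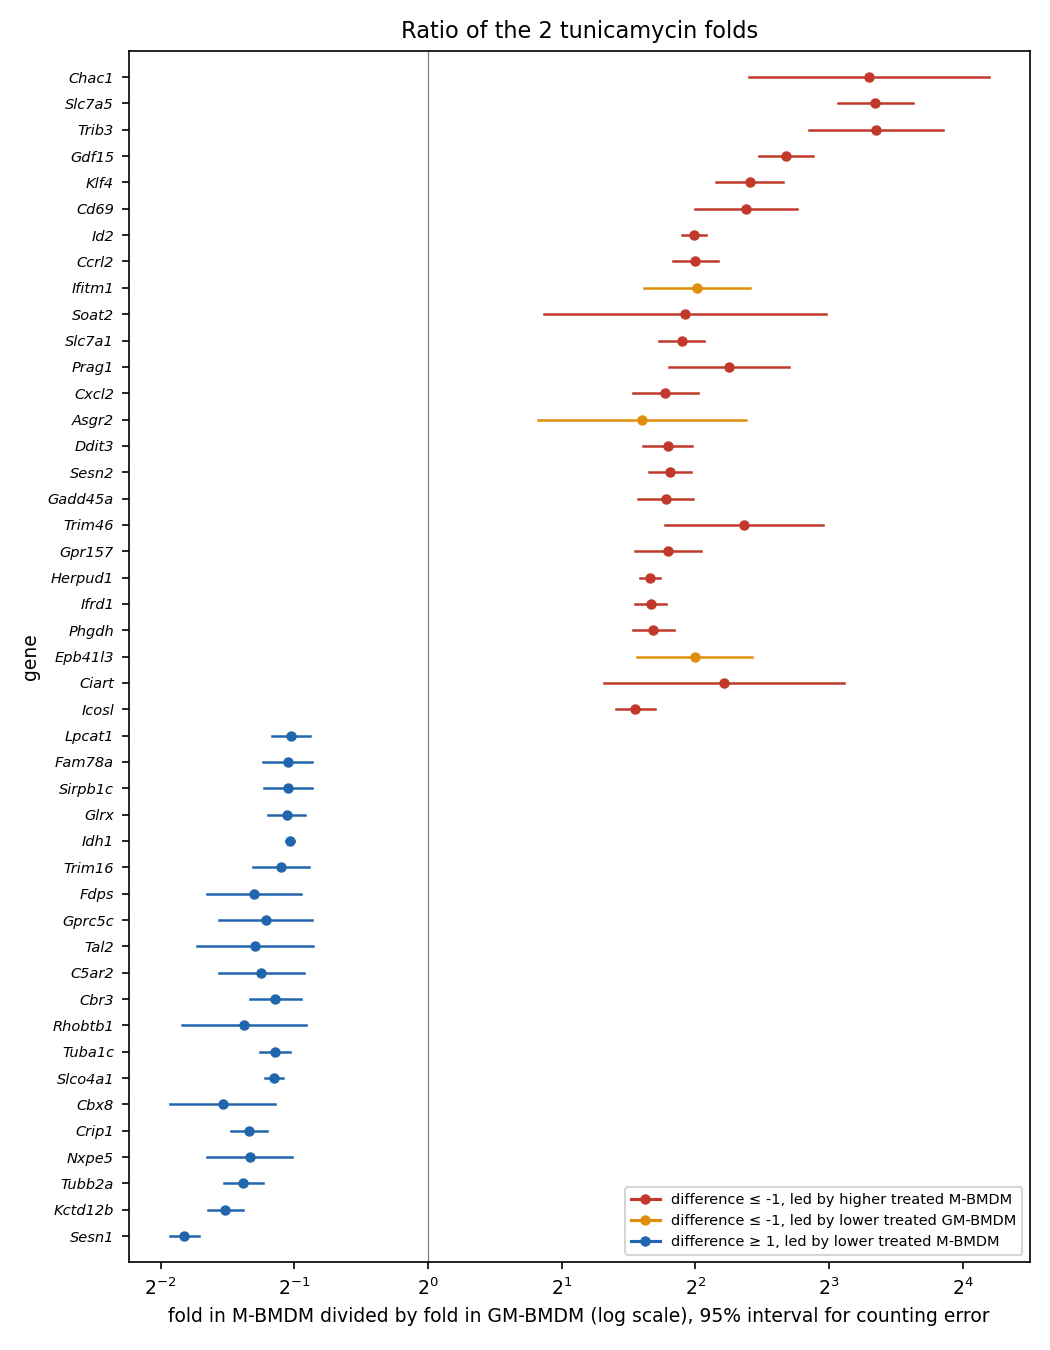
Fold after tunicamycin in M-BMDM divided by the fold in GM-BMDM, on a log axis, for 45 genes among the lowest and highest differences that had at least 10 reads in each library; points are single estimates and lines are 95% intervals for counting error only. The genes were chosen by their difference on the same counts, so that they lie away from 1 follows from the rule. The lines are widest for genes with few reads such as Soat2 and Chac1.

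In the 54 GM-led genes the treated GM-BMDM library was the lower one of its kind. For 32 of them M-BMDM was below 1 CPM in both libraries, so no response could be read there and they passed the minimum through GM-BMDM. Their higher untreated level in GM-BMDM is therefore built into the minimum. The 22 with at least 1 CPM in an M-BMDM library had a median response of -1.03 in GM-BMDM and 0.17 in M-BMDM. Untreated GM-BMDM was higher than untreated M-BMDM by 1 or more in 9 of them (40.9%), beside 12.4% of all genes compared. The rule favours a high untreated GM-BMDM level in these 22 too, so that share is in part built in. The median untreated gap of the 22 was 0.62. Of the 49 genes lower by 1 or more in treated GM-BMDM, 40 were among the 54.

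Of 23 genes of antigen presentation by MHC class II and of dendritic cells, 6 were GM-led and 1 was M-led, and the median difference was -0.58. Over all 11049 genes compared 54 were GM-led and 98 M-led. The share at -1 or lower was 30.4% in this list and 1.38% over all genes. Among the 6, Itgae, Dpp4, Cd209a and H2-Oa were below 1 CPM in both M-BMDM libraries and passed the minimum through GM-BMDM, so that Ciita and Kmo alone had a response that could be read in both kinds. Kmo, an enzyme of tryptophan breakdown, had 20.8 and 5.30 CPM in GM-BMDM and 4.80 and 2.44 CPM in M-BMDM. The median response was -0.51 in GM-BMDM and -0.25 in M-BMDM, beside 0.001 and 0.004 over all genes compared. Of the 23 genes 22 were below 0 in GM-BMDM. Ciita, the master activator of MHC class II, had 52.95 and 14.8 CPM in GM-BMDM and 28.3 and 18.2 CPM in M-BMDM, that is 0.279 (0.255 to 0.305) and 0.643 (0.585 to 0.706) of the untreated level. Both kinds were lower after tunicamycin, and untreated GM-BMDM was the highest library while its treated library was the lowest. The class II genes H2-Aa, H2-Ab1 and H2-Eb1, known targets of CIITA, had differences of -0.48, -0.44 and -0.58, and Cd74 had 0.00. Other class II genes went both ways, with H2-DMb2 and H2-Ob at -0.92 and -0.70 and H2-DMa and H2-DMb1 at 0.48 and 0.27. Of the 23 genes 17 had a difference below 0 and 6 above it. H2-Oa, a modulator of peptide loading, had 7.77 and 2.97 CPM in GM-BMDM and 0.805 and 0.829 CPM in M-BMDM.

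Itgae, the integrin chain CD103, had 9.94 and 1.58 CPM in GM-BMDM and 0.081 and 0.095 CPM in M-BMDM. Dpp4, a surface peptidase found on dendritic cells, had 16.045 and 4.24 against 0.242 and 0.308 CPM. For both genes the M-BMDM libraries had few reads, so the response there could not be read. The lectin receptor Asgr2 had 18.7 and 3.35 against 1.05 and 0.569 CPM, and its treated GM-BMDM level was 0.179 (0.148 to 0.214) of the untreated one, the lowest response of any gene compared in that kind (-2.18). Ifitm1 had 165 and 51.4 CPM in GM-BMDM against 2.42 and 3.03 CPM. Epb41l3 (7.58 and 2.59 against 4.08 and 5.57 CPM), Cxxc5 (5.44 and 1.30 against 0.161 and 0.284 CPM) and Hepacam2 (17.8 and 4.78 against 0.054 and 0.00 CPM) completed the GM-led genes among the 30 lowest. The chemokine Ccl17 and the surface protein Plet1, both marks of GM-CSF macrophages, had 286 and 141 CPM and 83.3 and 38.3 CPM in GM-BMDM and at most 0.118 CPM in M-BMDM.

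Markers of other cells were mostly higher in GM-BMDM than in M-BMDM, and in GM-BMDM some were lower after tunicamycin and others level or higher. The 16 neutrophil markers summed to 1712 and 1632 CPM in GM-BMDM and 255 and 242 CPM in M-BMDM. Most of the GM-BMDM sum was Mmp8, at 1459 and 1485 CPM. Most of the M-BMDM sum was Csf3r, which was higher in M-BMDM, at 190 and 199 CPM against 8.57 and 8.18 CPM in GM-BMDM. Of 9 such markers compared 7 were below 0 in GM-BMDM with a median response of -0.69, and 2 were GM-led members, Ngp (46.0 and 22.2 CPM in GM-BMDM) and S100a9 (71.8 and 42.8 CPM). Below the CPM minimum Elane had 114 and 35 reads in GM-BMDM against 0 and 1 in M-BMDM, and Mpo 86 and 13 against 3 and 12. Others were level in GM-BMDM, with 50 and 48 reads for Cxcr2, 14 and 13 for Retnlg, and 5.64 and 5.66 CPM for Mmp9. Mmp9 was higher in M-BMDM, at 12.0 and 9.41 CPM. The 11 mast cell, basophil and eosinophil markers summed to 146 and 113 CPM in GM-BMDM and 1.85 and 1.78 CPM in M-BMDM, with 3 of the 11 at 0 reads in each M-BMDM library. Most of the change in that sum lay in Siglecf (93.9 and 73.5 CPM), which is also on the GM-CSF macrophage list, and Kit (35.6 and 25.5 CPM). Cpa3 (3.48 and 3.61 CPM) and, by reads, Mcpt8 (34 and 42), Ms4a2 (32 and 40) and Fcer1a (24 and 32) were higher in treated GM-BMDM, and Prg2 (100 and 41 reads) was lower. Lymphocyte markers summed to between 1.16 and 9.90 CPM, where Cd4 gave 8.13 and 7.96 CPM in M-BMDM, and fibroblast markers to between 2.60 and 10.9 CPM. Erythroid and platelet markers summed to 39.8 and 35.5 CPM in GM-BMDM and 4.99 and 5 CPM in M-BMDM. Whether other cells in the cultures had a part in the GM-led genes was not tested, and in bulk RNA fewer cells of a type and less RNA per cell cannot be told apart. Mitosis genes summed to 1496 and 1302 CPM in GM-BMDM and 209.8 and 290.5 CPM in M-BMDM, and all 20 were below 0 in GM-BMDM with a median of -0.16. One of them, Mki67, was a member, at 502 and 420 CPM against 99.4 and 172 CPM.

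In all 23 genes with the higher response in GM-BMDM the larger part was a lower level in treated M-BMDM. The median response was -1.09 in M-BMDM and -0.02 in GM-BMDM, 15 of the 23 were at -1 or lower in M-BMDM, and 22 had a GM-BMDM response within 0.5 of 0. The exception was Sirpb1c, with responses of 0.50 in GM-BMDM and -0.50 in M-BMDM, so its parts were nearly equal. In 16 of the 23 (69.6%) the untreated levels lay within 1, beside 80.6% of all genes compared. The untreated libraries enter the rule here as well, so this share is not free of it. Il10, the anti-inflammatory cytokine, had the highest difference, 1.90, with 9.77 and 1.68 CPM in M-BMDM, but GM-BMDM had 0.075 and 0.00 CPM, so that its response there could not be read. Sesn1, a p53 target and a relative of Sesn2, had 54.3 and 45.0 CPM in GM-BMDM and 261 and 61.2 CPM in M-BMDM, 0.828 (0.779 to 0.881) and 0.234 (0.224 to 0.244) of the untreated level. Untreated M-BMDM stood far above the other 3 libraries, which were close together. Sesn1 and Sesn2, both inhibitors of mTORC1, thus lay at opposite ends, at 1.81 and -1.77.

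Kctd12b had 72.8 and 72.6 CPM in GM-BMDM and 64.8 and 22.6 CPM in M-BMDM. The tubulin genes Tubb2a (49.4 and 45.3 against 57.5 and 20.2 CPM) and Tuba1c (121 and 119 against 70.2 and 31.2 CPM) were both in this set. Enzymes of metabolism were Idh1, which makes NADPH from isocitrate (984 and 1161 against 822 and 474 CPM), Fdps of cholesterol synthesis (15.4 and 14.9 against 7.06 and 2.77 CPM), the glutaredoxin Glrx (81.4 and 73.9 against 44.7 and 19.5 CPM) and the carbonyl reductase Cbr3 (16.9 and 19.2 against 39.6 and 20.3 CPM). Receptors were the C5a receptor C5ar2 (11.7 and 13.7 against 8.56 and 4.22 CPM), Gprc5c and Sirpb1c. Others in the set were Slco4a1, Crip1, Nxpe5, Cbx8, Rhobtb1, Tal2, Trim16, Fam78a and Lpcat1, with differences from 1.001 to 1.34. The ratio of the GM-BMDM fold to the M-BMDM fold was 2.03 (1.84 to 2.25) for Lpcat1, near the threshold, and 3.54 (3.28 to 3.82) for Sesn1.

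Several lists had a median above 0 with few or no members at the threshold. Of 20 M-CSF macrophage genes 14 were above 0 and none reached 1, with a median of 0.37 and median responses of -0.12 in GM-BMDM and -0.50 in M-BMDM. Fcgr1 had 92.1 and 84.0 against 264 and 135 CPM. Cholesterol synthesis had 22 of 28 genes above 0 (median 0.22, 1 at 1 or higher), NRF2 antioxidant genes 17 of 21 (0.12), glycolysis 19 of 24 (0.16) and pan-macrophage markers 11 of 14 (0.19). Lyz2, the lysozyme of macrophages and an abundant mRNA in all 4 libraries, had 34953 and 33138 CPM in GM-BMDM and 39136 and 21849 CPM in M-BMDM, with a difference of 0.76. Interferon-stimulated genes (36 compared, median 0.10), MHC class I genes (17, 0.12), lysosome and autophagy genes (29, 0.10), scavenger receptors (17, 0.12), cytosolic heat shock genes (15, 0.15) and Toll-like receptors and adaptors (18, 0.06) had no member at or beyond 1. Lists with members on both sides or of mixed direction were the p53 targets (4 of 20 at -1 or lower, 1 at 1 or higher, median -0.07), M2 polarization genes (2 and 1 of 15, median -0.05) and C-type lectin receptors (2 of 16 at -1 or lower, median 0.22). DNA replication genes (21, median -0.24) and mitochondrial mRNAs (9, median -0.10) had no member at or beyond 1. Over all genes compared, 5497 of 11049 were above 0, while only 1.38% were at -1 or lower and 0.208% at 1 or higher.

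Responding alike meant small responses in most cases. The 17 genes higher in both had median responses of 0.61 in GM-BMDM and 0.81 in M-BMDM, and the 36 lower in both had -0.63 and -0.66. The response reached 1 in both kinds for 1 of the 53, the predicted gene BC035044, chosen after its values were seen (2.48 and 0.613 CPM in GM-BMDM, 3.52 and 1.14 CPM in M-BMDM). Among the higher ones were the heat shock gene Hspa1a (1.29 and 2.26 against 3.62 and 8.22 CPM), which has a near-identical copy and is uncertain, Slc6a9 as given above, and the histone genes H3c4 (9.74 and 21.2 against 3.68 and 7.20 CPM), H1f1 (33.1 and 58.1 against 8.43 and 14.1 CPM), H2ac6 and H3c10. Fbxl12, Plekhh3, Klhdc1 and Zfp605 completed the 10 named, with GM-BMDM responses from 0.56 to 0.68. Histone genes share sequence with their copies, so their reads may have been split and their values are uncertain.

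Among the genes lower in both were 2 of the 16 C-type lectin receptors compared. These, Mgl2 (285 and 147 CPM in GM-BMDM, 9.90 and 4.95 CPM in M-BMDM) and Clec10a (24.9 and 15.2 against 127 and 60.9 CPM), are related receptors that differ in which kind holds more. Aif1, a macrophage marker, had 9.14 and 2.78 against 105 and 53.9 CPM. The membrane genes Tmem176b (20.9 and 8.55 against 632 and 367 CPM) and Tmem176a (8.37 and 3.72 against 279 and 166 CPM) were again much higher in M-BMDM. Rnase6 (20.8 and 10.2 against 19.8 and 8.84 CPM) was close to equal in the kinds before and after. Slamf9, Eif4ebp2, Ednrb and Lrp8 were the others named, with responses from -0.95 to -0.50. A gene could thus respond alike although its level differed many times between the kinds.

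At the edges of the rule the values run on without a gap. Eif5, Socs3 and Creb5 were the last inside -1, and Gas2l3 (123 and 130 against 103 and 220 CPM), Hr and Tle3 lay just outside, between -0.9992 and -0.9952. On the other side Fam78a and Lpcat1 lay just inside 1, and Slc40a1, Batf3 and Ifi47 lay just outside, each at 0.94. The iron exporter Slc40a1, for example, had 21.9 and 15.4 CPM in GM-BMDM and 345 and 128 CPM in M-BMDM.

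The LLC libraries gave a readout of the same genes that the rule did not use. LLC cells had been cultured in medium conditioned for 16 h by macrophages of either kind, which were without tunicamycin or had received it for 12 h and were then washed. Of the 9677 genes compared in LLC and in macrophages, 20 (0.207%) were higher by 1 or more with medium of treated than of untreated GM-BMDM, and 23 (0.238%) with that of M-BMDM. Among the 75 M-led genes compared 4 and 5 reached 1, and 52 and 54 were above 0, with medians of 0.19 and 0.21, beside medians of 0.003 and 0.007 over all genes. For the 25 GM-led genes compared the medians were 0.04 and -0.06 and none reached 1, and for 14 of the 23 genes with the higher response in GM-BMDM they were 0.02 and -0.13, with none at 1. Of the genes called alike, 13 higher and 21 lower ones were compared and none reached 1. The higher ones had medians of 0.11 and 0.01, and the lower ones 0.17 and 0.07. With GM-BMDM medium the median of the lower ones was thus close to that of the M-led genes. Atf3 had the largest response of the M-led genes in both media, at 7.34 and 38.3 CPM with GM-BMDM medium and 7.55 and 43.4 CPM with M-BMDM medium. Ppp1r15a had 38.5 and 102 CPM with GM-BMDM medium and 35.3 and 117.5 CPM with M-BMDM medium. For these 2 genes the levels in LLC were close with either medium. The macrophages that conditioned the medium were not the sequenced ones, which had tunicamycin for 4 h. Cxcl1, chosen after its values were seen, had 21.1 and 64.6 CPM with GM-BMDM medium and 22 and 27.7 CPM with M-BMDM medium. Cxcl2 had 6.89 and 28.2 CPM and 6.06 and 13.9 CPM. Each of these libraries is again a single one.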

How the data were processed

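Read counts per gene were deposited by the authors in 1 table for the 4 macrophage libraries and 1 for LLC, with FPKM values beside them, per the file headers. The FPKM of the macrophage table equalled count per length and total within 4.92e-06 and were not used otherwise. The other table, for LLC, was deposited by the authors with line-end characters inside its cells, which were stripped before its counts were read. Per the submitters' processing notes, which state no role or order, the tools were cutadapt 1.15, TopHat2 2.1.0 and HISAT2. The read counter, the strand setting and the build are not given in the sources used here, so reads of overlapping genes and near-identical copies are uncertain. Gene coordinates of the LLC table equalled those of the GENCODE M21 annotation of GRCm38 for 21694 of 21894 IDs (99.1%). Of the 22060 macrophage genes, 21820 took their symbol from the LLC table and 226 from GENCODE M21, and 14 stayed without.

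CPM were computed with TMM library sizes (edgeR 4.0.16, R 4.3.3), and responses on log2(CPM + 1) were described with a minimum mean of 1 CPM. The pseudocount of 1 understates the change of genes at a few CPM. With 1 library per group no differential test was run; DESeq2 1.42.0 gave alternative size factors only. Folds are ratios of CPM with no pseudocount, for genes with at least 10 reads in each library concerned, with exact Clopper-Pearson intervals at 95% (scipy 1.17.1). Reads carry no molecular identifiers, so intervals cover counting error only. The script was tested on simulated data.

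The members and the 40 gene lists were chosen with earlier results of these data known. The text names, among genes with at least 5 CPM in a library and a symbol that is neither predicted, clone-derived nor pseudogene, the 30 lowest and all 23 highest differences, the 3 nearest each threshold, 10 genes alike in each direction, up to 4 members per list with the largest difference, and 20 stress and immune genes in any case. Some genes that this rule names are not reported here. Other members of lists are named with their list and were chosen after their values were seen. Promoter sequences came from RefSeq on GRCm38.p6.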

Additional observations from a re-analysis of the deposited data

Results flagged for a closer look

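Genes whose responses were at least 0.5 in size and went in opposite directions in the kinds numbered 4 of 11049 (0.036%). The difference of responses was -1.81 for Prag1, -1.53 for H2bc12, -1.35 for Srp54c and 1.01 for Sirpb1c, and with 1 library per group it was not tested. Prag1 had 6.33 and 4.08 CPM in untreated and treated GM-BMDM and 2.28 and 6.99 CPM in M-BMDM. Sirpb1c had 65.3 and 92.9 CPM in GM-BMDM and 18.6 and 12.8 CPM in M-BMDM. H2bc12 and Srp54c were chosen after their values were seen, and both have near-identical copies among which reads may have been split.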

How the results depend on the processing

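No paired analysis was possible because each group is 1 library, and leaving out a library leaves no response to compare. Of the 152 genes with the lower response in GM-BMDM, 148 remained with total-count CPM (172 genes in all), 149 with DESeq2 size factors (150), 151 with the median difference set to 0 (151), 152 with a pseudocount of 0.5 (184) and 152 with no filter (163), and 117 of 9597 genes were counted at a mean of at least 5 CPM. With a pseudocount of 5 the count was 73. The 23 genes with the higher response in GM-BMDM became 15 with total-count CPM and 9 with a pseudocount of 5, and lay between 20 and 34 elsewhere. The genes called alike changed most. The 17 higher ones became 30 with total-count CPM, 29 with a pseudocount of 0.5, 2 with a pseudocount of 5 and 10 at a mean of at least 5 CPM, and the 36 lower ones became 19 with total-count CPM and 16 with a pseudocount of 5. The split of 17 higher to 36 lower therefore turned into 30 to 19 with total-count CPM, and which is more common among genes alike depends on the scaling. Requiring the responses to be within 0.3 left 12 and 30. The median difference over all genes lay between -0.05 and 0.01. No gene named by the rule reversed, and 33 of 86 at or beyond 1 came inside it with a pseudocount of 5, 8 with total-count CPM and at most 3 elsewhere. Among list medians that of the cytokines changed sign, from -0.27 to 0.03. The cause of these changes was not tested, apart from the smaller number of genes at the higher CPM minimum.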
